A study of Arabidopsis thaliana with 18 samples.

Results

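The genes described here are 33 nuclear genes of Arabidopsis thaliana whose products serve the Calvin cycle (19 genes) or photorespiration (14 genes). They were chosen by the known role of their products from the 32832 genes of the deposited table. The gene lists compared with them were drawn up by role in the same way. Both choices were made with earlier results of these data known. Shares of members called, set beside those of all genes, are therefore description, and no list was tested as a whole. Of the 33 genes, 32 passed the filter on low counts and were tested. PGLP1, which had at most 6 counts in any library, was not.

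Transcripts were counted in whole 5-day-old seedlings by QuantSeq, a method that sequences the 3′ end of each mRNA, so that 1 read stands for 1 transcript end whatever the length of the gene. Seedlings were Col-0, the wild type, or atm1-1, a mutant with a T-DNA insertion in ATM1 (AT3G19960), a gene for a class VIII myosin. Both genotypes were grown on plates of Murashige and Skoog medium to which either no sugar (mock), glucose at 15 mM or sucrose at 15 mM was added, in equal hours of light and dark. Each of the 6 groups had 3 biological replicates, making 18 libraries of 9450790 to 20256309 counts, of which the 33 genes took 1.88 to 3.02%. The atm1-1 mutant is 1 insertion line, described as a null allele by the study. ATM1 itself gave 311 to 623 counts per library with atm1-1 libraries at both ends of that range, so its 3′ counts did not check the genotype labels. Levels are given as CPM, counts per 1000000 counts of the library, scaled with TMM factors, which adjust for the composition of each library. They are not divided by length. The text calls a gene changed where its q-value, the p-value of edgeR's quasi-likelihood test adjusted by Benjamini-Hochberg over all 19679 tested genes, was at most 0.1.

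The Calvin cycle fixes CO2 in the chloroplast. Rubisco, built of a plastid-encoded large subunit and nuclear-encoded small subunits, carboxylates ribulose bisphosphate; the product is reduced to triose phosphate, and most of that is used to regenerate the acceptor. Rubisco also accepts O2. The phosphoglycolate so formed is salvaged by photorespiration, a pathway that runs through the chloroplast, the peroxisome and the mitochondrion and returns glycerate to the cycle. Sugars are known in plants to lower the transcripts of many photosynthetic genes. The gene for the Rubisco large subunit is one of 285 organelle genes with no counts in the table, and is not analysed here.

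Both sets of genes were lower in seedlings grown with sugar. Summed over the 19 Calvin cycle genes, the level was 22703 ± 388 CPM in Col-0 mock (mean ± SD, n = 3 here and for each group below), 20073 ± 533 on glucose and 18312 ± 1198 on sucrose. In atm1-1 the corresponding sums were 22390 ± 2628, 17500 ± 1380 and 15855 ± 2618 CPM. These Calvin cycle sums overlapped slightly between mock and sugar, since the highest sugar library (20454 CPM) lay above the lowest mock library (20237 CPM). The 14 photorespiration genes summed to 7145 ± 201, 5984 ± 172 and 5131 ± 572 CPM in Col-0 on mock, glucose and sucrose, and to 6667 ± 549, 5420 ± 220 and 4709 ± 532 CPM in atm1-1. Here the 12 sugar libraries (4097 to 6165 CPM) all lay below the 6 mock libraries (6289 to 7372 CPM). As a share of the mock mean of the same genotype, the Calvin cycle sum on sucrose was 80.7% in Col-0 and 70.8% in atm1-1. The photorespiration sum was 71.8% and 70.6%. The Calvin cycle sum is weighted toward RBCS1A and RBCS3B, genes for the Rubisco small subunit. In Col-0 mock their means were 7277 and 4892 CPM of the 22703 CPM. On sucrose RBCS1A was at 89.4% of mock in Col-0 and 72.1% in atm1-1, and RBCS3B at 82.9% and 72.6%. The contrast between genotypes in this sum need not hold for the other genes of the cycle.

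**Figure D1:**
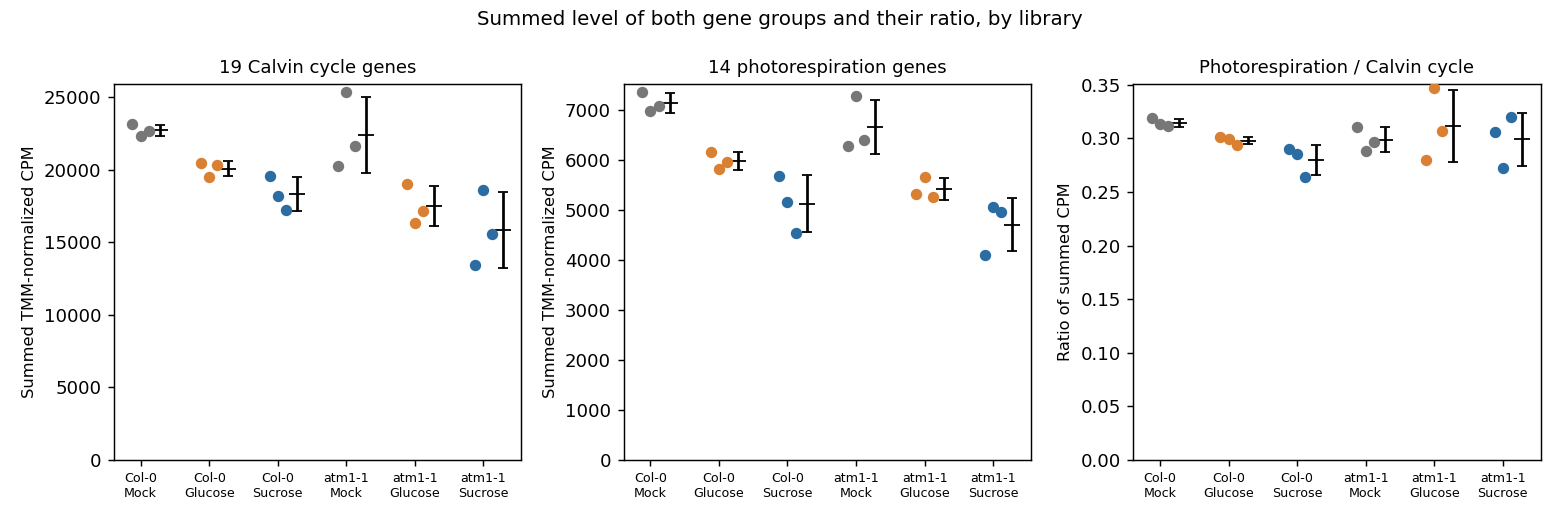
Summed TMM-normalized CPM of the 19 Calvin cycle genes (left) and the 14 photorespiration genes (middle) and the ratio of the second to the first (right). Each point is 1 library, coloured grey for mock, orange for glucose and blue for sucrose, and the bar beside the points is the group mean with its SD. Photorespiration sums of all sugar libraries lie below those of all mock libraries, and the ratio falls from mock to sucrose in Col-0 but not in atm1-1. The Calvin cycle sum is weighted toward its most abundant genes, RBCS1A and RBCS3B.

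The balance of the pathways moved little. In Col-0 the ratio of the photorespiration sum to the Calvin cycle sum was 0.312 to 0.319 in mock, 0.294 to 0.301 on glucose and 0.264 to 0.29 on sucrose, ranges that did not overlap. In atm1-1 the ranges were 0.288 to 0.311, 0.28 to 0.347 and 0.272 to 0.32, and they overlapped throughout. A ratio over chosen genes was given no test. Its Calvin cycle part is weighted toward RBCS1A and RBCS3B, so the ratio need not hold for single genes. Gene by gene, the median log2 fold change of the Calvin cycle and the photorespiration genes was −0.19 and −0.23 for glucose in Col-0, −0.42 and −0.48 for sucrose in Col-0, −0.38 and −0.35 for glucose in atm1-1, and −0.50 and −0.54 for sucrose in atm1-1. Over all tested genes the medians were between −0.01 and 0.01, but TMM scaling brings these near 0 by design. The 4 comparisons share their mock libraries within a genotype and so are not independent.

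Sucrose gave more calls than glucose in both genotypes, and all calls against mock were toward lower levels. On sucrose in Col-0, 6 of 32 genes fell, where 0.899% of all tested genes were called lower. They were 3 Calvin cycle genes (FBA2, RPE and CP12-2) and 3 photorespiration genes (GOX1, HPR1 and CAT2). On sucrose in atm1-1, 18 genes fell, 9 of each set, against 2.39% of all tested genes, and these 18 included the 6 of Col-0. On glucose in atm1-1, 4 genes fell (RPE, CP12-2, SHM1 and GLYK), against 0.722%. On glucose in Col-0 no member was called by edgeR, against 0.112% of all genes, although 31 of 32 estimates were below 0 and 6 members had an unadjusted p under 0.05. DESeq2 called 1, GGT1. In the mean over both sugars and both genotypes, 24 of 32 fell (14 Calvin cycle and 10 photorespiration genes), against 5.78%. No member was called higher in any of the 13 comparisons made. The shares of all tested genes were not matched for level to the tested members, whose means ran from 38.5 to 6484 CPM.

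**Figure D2:**
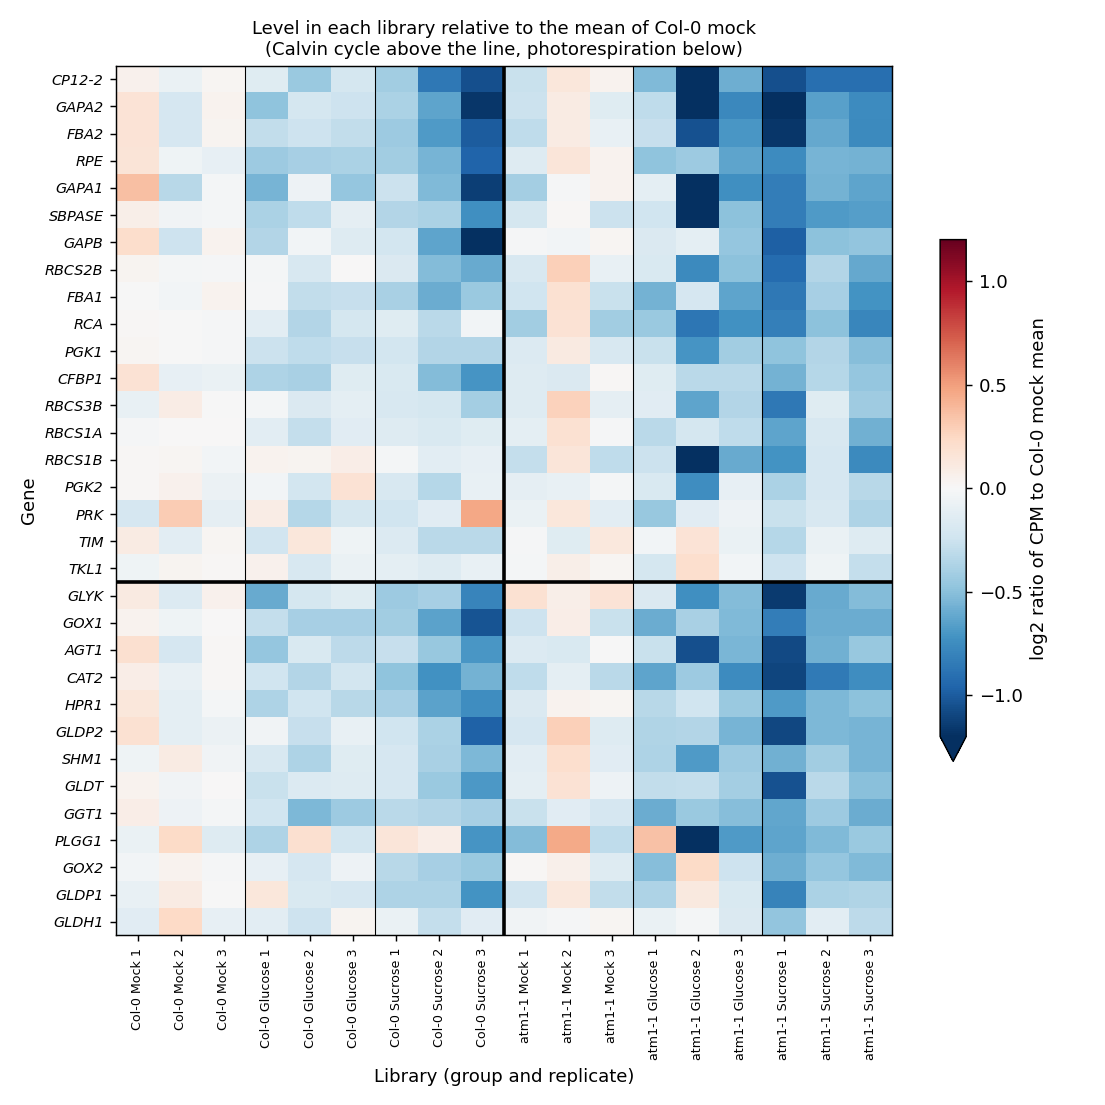
Level of each of the 32 tested genes (rows, Calvin cycle above the thick line and photorespiration below, each ordered by the mean response to sugar) in each of the 18 libraries (columns), as the log2 ratio of its CPM to the Col-0 mock mean. The colour scale ends at 1.2 in either direction. In most rows blue deepens from mock to glucose to sucrose, the bottom rows of each block (PRK, TIM, TKL1, GLDH1) stay pale, and atm1-1 glucose replicate 2 is uneven.

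Some libraries stood apart among these genes. atm1-1 glucose replicate 2 had the widest scatter, with deviations of its 32 genes from the group mean of −1.22 to 0.41 on the log2 scale. atm1-1 glucose replicate 1 deviated by −0.34 to 1.12. atm1-1 sucrose replicate 1 was the lowest of its 3 libraries for 28 of 32 genes, and Col-0 sucrose replicate 3 for 21. atm1-1 mock replicate 2 was the highest of its group for 24. The counts of calls moved with such libraries. The 4 calls on glucose in atm1-1 were 1 without replicate 2 of that group, 15 without replicate 1, 1 without replicate 3, 2 without mock replicate 1, and 0 without either of the other mock replicates. Of the 18 calls on sucrose in atm1-1, leaving out mock replicate 2 gave 4, sucrose replicate 1 also 4 and sucrose replicate 3 gave 10. The 6 on sucrose in Col-0 were 0 without mock replicate 1, 3 without mock replicate 3, 10, 2 and 1 when sucrose replicates 1, 2 and 3 were left out in turn. The pooled comparison was steadier, with 20 to 26 members called whichever library was left out. The direction was shared more widely than the calls. On sucrose, the 3 libraries lay wholly below the 3 mock libraries for 26 of 32 genes in Col-0 (10.1% of all tested genes did so) and for 28 in atm1-1 (12.1%). On glucose this held for 16 in Col-0 (6.88%) and 16 in atm1-1 (7.72%). Over both genotypes, all 12 sugar libraries were below all 6 mock libraries for 7 genes, against 0.493% of all tested genes.

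Of the genes for the Rubisco small subunit, RBCS1A and RBCS3B had the highest levels of all members in CPM, RBCS1A and RBCS2B fell on sucrose in atm1-1, and RBCS1B was called in no comparison with mock. RBCS1A (AT1G67090), RBCS1B (AT5G38430), RBCS2B (AT5G38420) and RBCS3B (AT5G38410) are described in turn. RBCS1A stood at 7193, 7322 and 7315 CPM in Col-0 mock, 6678, 5955 and 6637 on glucose, and 6551, 6403 and 6558 on sucrose. The mutant libraries held 6716, 8238 and 7190 CPM in mock, 5829, 6282 and 5892 on glucose, and 4698, 6373 and 4885 on sucrose. Mock and sugar did not overlap in either genotype, yet the differences were small. On sucrose the log2 fold change was −0.16 ± 0.13 (SE, q = 0.648) in Col-0 and −0.47 ± 0.13 (q = 0.0513) in atm1-1, by edgeR.

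RBCS3B was the next most abundant gene. Its levels were 4604, 5201 and 4870 CPM in Col-0 mock, 4819, 4320 and 4499 on glucose, and 4265, 4223 and 3673 on sucrose. In atm1-1 they were 4387, 5915 and 4529 CPM, then 4439, 3143 and 3837 on glucose and 2699, 4430 and 3632 on sucrose. Its groups overlapped wherever a single library ran high, and RBCS3B was called only in the mean over sugars and genotypes (−0.30 ± 0.10, q = 0.0612, edgeR). RBCS2B held 1335, 1283 and 1296 CPM in Col-0 mock, 1284, 1140 and 1305 on glucose and 1158, 909 and 856 on sucrose. Its atm1-1 libraries gave 1144, 1589 and 1223 CPM in mock, 1152, 768 and 927 on glucose, and 687, 1024 and 851 on sucrose. Sucrose libraries were below mock in both genotypes, and RBCS2B fell on sucrose in atm1-1 (−0.63 ± 0.17, q = 0.0418, edgeR).

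RBCS1B was the least abundant of the 4. It stood at 207, 209 and 201 CPM in Col-0 mock, 212, 210 and 217 on glucose, and 202, 188 and 192 on sucrose. The atm1-1 values were 169, 227 and 166 CPM in mock, 172, 74.9 and 135 on glucose, and 125, 179 and 121 on sucrose. In Col-0 the glucose libraries lay above all mock libraries, the only member of which this was so, whereas the 6 atm1-1 sugar libraries were all below every Col-0 library. The make-up of the small subunit transcripts shifted little. RBCS1A took 50.3 to 61.2% of the RBCS reads over the 18 libraries, RBCS3B 30.6 to 38.3%, RBCS2B 7.47 to 10.3% and RBCS1B 0.73 to 1.8%. No 50-base stretch of the last 300 transcribed bases of any RBCS gene was found at another locus, so reads of that length could be told apart there.

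RCA (AT2G39730), Rubisco activase, held 857 to 874 CPM in Col-0 mock, 677 to 790 on glucose and 692 to 844 on sucrose. In atm1-1 the ranges were 647 to 975, 473 to 633 and 488 to 614 CPM. It fell on sucrose in atm1-1 (−0.50 ± 0.16, q = 0.0905, edgeR), while in Col-0 the estimate was −0.16 ± 0.16 (q = 0.71). DESeq2 also called RCA lower on glucose in atm1-1 (−0.46, q = 0.0994).

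In the reduction step, which turns phosphoglycerate into triose phosphate, GAPA2 and GAPB fell on sucrose in atm1-1 by edgeR. PGK1 and GAPA1 were called by edgeR in the pooled comparison without a call in any single one. GAPA1, GAPA2 and GAPB encode the subunits of chloroplast glyceraldehyde-3-phosphate dehydrogenase. GAPA2 (AT1G12900) held 1370, 1060 and 1255 CPM in Col-0 mock, 874, 1053 and 1026 on glucose, and 936, 789 and 545 on sucrose. Its levels in atm1-1 were 1021, 1308 and 1103 CPM in mock, 991, 469 and 713 on glucose, and 487, 780 and 724 on sucrose. All sugar libraries lay below the mock libraries of their genotype. GAPA2 changed on sucrose in atm1-1 by −0.79 ± 0.22 (q = 0.0481, edgeR), and the estimate in Col-0, −0.70 ± 0.22, missed the threshold with q = 0.124. GAPB fell on sucrose in atm1-1 (−0.62 ± 0.19, q = 0.0817), with an estimate of −0.66 ± 0.19 in Col-0 (q = 0.104). DESeq2 called both GAPA2 and GAPB lower on sucrose in Col-0 (q = 0.0654 and 0.0496). GAPA1 was called only in the pooled comparison (−0.53 ± 0.15, q = 0.028). Of the phosphoglycerate kinase genes, which act just before, PGK1 fell in the pooled comparison (−0.33 ± 0.08, q = 0.0101), and PGK2 was called in none (pooled −0.17 ± 0.10, q = 0.312). DESeq2 also called PGK1 lower on glucose and on sucrose in atm1-1 (q = 0.0943 and 0.0771). PGK1 took 87.9 to 91.9% of the reads of that pair in every library.

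Among the 8 genes of regeneration, responses ranged from the clearest to the weakest of the Calvin cycle. RPE (AT5G61410) encodes ribulose-5-phosphate 3-epimerase. It stood at 481, 417 and 406 CPM in Col-0 mock, 320, 328 and 334 on glucose, and 324, 294 and 223 on sucrose. The atm1-1 libraries held 389, 478 and 447 CPM in mock, 310, 320 and 279 on glucose and 257, 295 and 293 on sucrose. All 12 sugar libraries, at 334 CPM or less, were below all 6 mock libraries, at 389 or more. RPE fell on sucrose in Col-0 (−0.63 ± 0.14, q = 0.0249), on glucose in atm1-1 (−0.53 ± 0.14, q = 0.0565) and on sucrose in atm1-1 (−0.64 ± 0.14, q = 0.0119), and had the lowest pooled q of any member (−0.55 ± 0.09, q = 0.000119, edgeR).

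FBA2 (AT4G38970), a plastid fructose-bisphosphate aldolase, held 1356, 1053 and 1239 CPM in Col-0 mock, 988, 1017 and 984 on glucose, and 892, 754 and 605 on sucrose. In the mutant it held 977, 1291 and 1140 CPM in mock, 996, 587 and 743 on glucose, and 538, 788 and 712 on sucrose. Only the first glucose library of atm1-1 reached into the mock range. FBA2 fell on sucrose in Col-0 (−0.70 ± 0.18, q = 0.0595) and in atm1-1 (−0.74 ± 0.18, q = 0.0224, edgeR). Its paralogue FBA1 fell on sucrose in atm1-1 (−0.55 ± 0.16, q = 0.0546, edgeR). SBPASE, sedoheptulose-bisphosphatase, and CFBP1, the plastid fructose-bisphosphatase, were called by edgeR in the pooled comparison (−0.46 ± 0.12, q = 0.0156 and −0.32 ± 0.09, q = 0.0238). DESeq2 also called FBA1 and CFBP1 lower on sucrose in Col-0 (q = 0.0856 and 0.0513), and SBPASE on sucrose in atm1-1 (q = 0.0879). The other 3 genes of this phase were called nowhere. PRK, phosphoribulokinase, had 506 to 719 CPM in Col-0 mock and 491 to 800 on sucrose, with the highest value in replicate 3, the library in which most other members were lowest. TIM, plastid triose phosphate isomerase, and TKL1, transketolase, had pooled estimates of −0.12 ± 0.08 (q = 0.442) and −0.11 ± 0.08 (q = 0.479).

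CP12-2 (AT3G62410) is not an enzyme. It is a small protein that ties glyceraldehyde-3-phosphate dehydrogenase and phosphoribulokinase into an inactive complex in the dark. Its level was 104, 94.5 and 102 CPM in Col-0 mock, 90.7, 73.5 and 86.3 on glucose, and 74.8, 55.4 and 48.1 on sucrose. The atm1-1 seedlings had 83.3, 110 and 103 CPM in mock, 69.4, 37.8 and 66.6 on glucose, and 48.1, 53.6 and 53.5 on sucrose. In each genotype every sugar library was below every mock library. CP12-2 had the lowest fold change of the Calvin cycle set in every comparison in which edgeR called it, at −0.75 ± 0.19 (q = 0.0504) for sucrose in Col-0, −0.77 ± 0.19 (q = 0.0314) for glucose in atm1-1 and −0.93 ± 0.19 (q = 0.00529) for sucrose in atm1-1, where the mean fell to 52.4% of mock. Its glucose call was lost without atm1-1 glucose replicate 2, its lowest library (q = 0.145), and without atm1-1 mock replicate 2 or 3 (q = 0.156 and 0.129, edgeR).

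**Figure D3:**
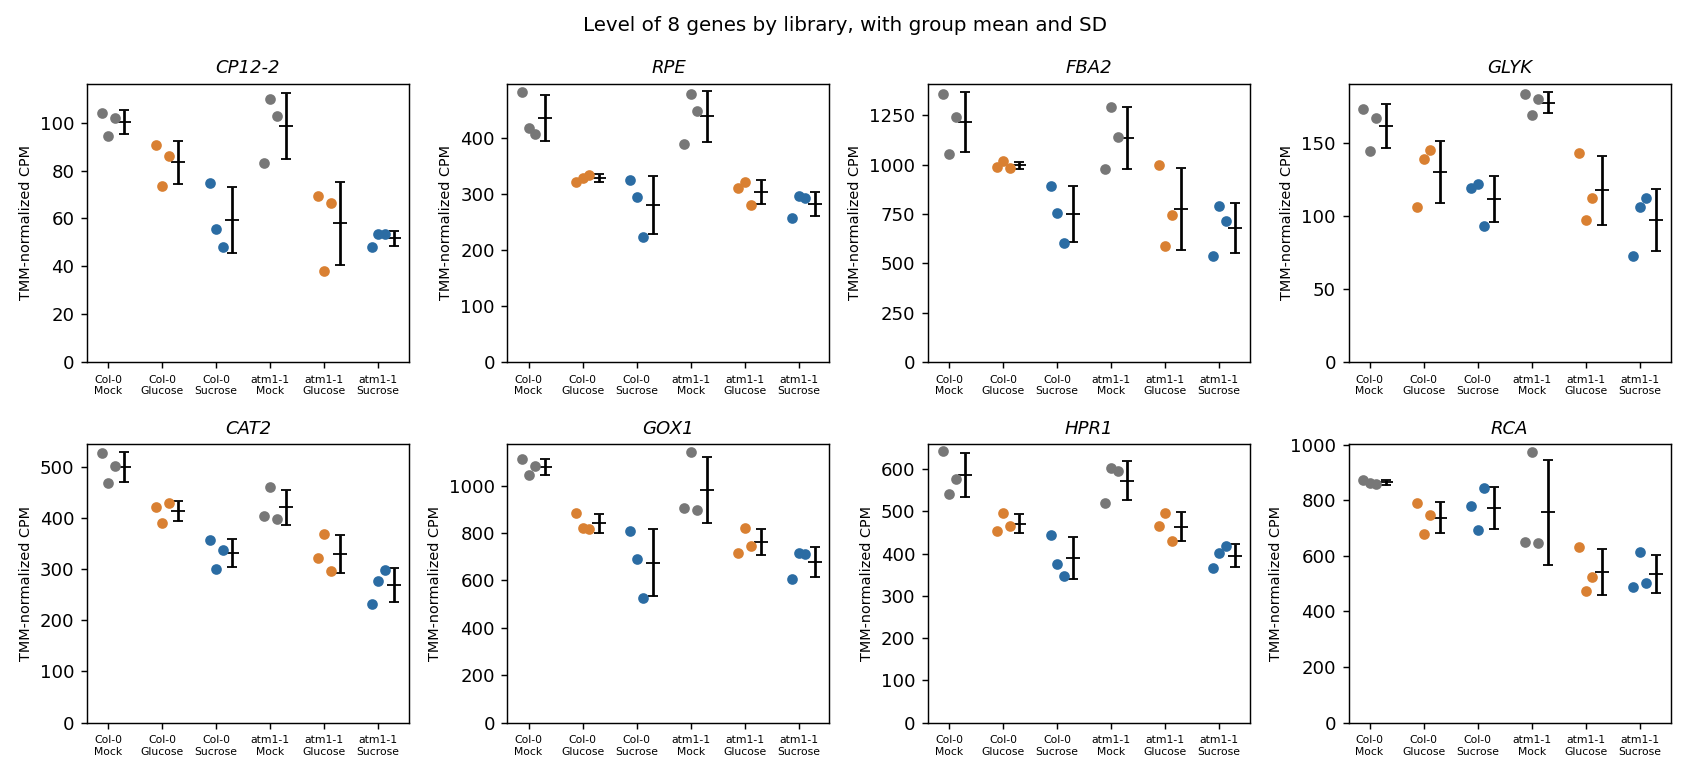
TMM-normalized CPM of 8 genes in each library, by group. Points are libraries (grey mock, orange glucose, blue sucrose) and the bar beside them is the mean with its SD. The sucrose points lie below the mock points in both genotypes for all 8 genes, and the atm1-1 mock libraries of RCA are spread from 647 to 975 CPM.

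Photorespiration begins in the chloroplast. PGLP1 (AT5G36700), the phosphoglycolate phosphatase that opens the pathway, had 50 counts in all 18 libraries together and 0 to 6 in each. In CPM its libraries held 0.446, 0.392 and 0 in Col-0 mock, 0.267, 0.214 and 0.41 on glucose and 0.341, 0.144 and 0.0453 on sucrose, and from 0 to 0.315 in atm1-1. Of the 50-base windows at the 3′ end of PGLP1, 93.5% also occur in a near-identical copy, PGLP1B (AT5G36790), which had 229 counts. Reads from either gene could not be placed uniquely, so no level is read from these counts. PLGG1, the glycolate and glycerate transporter of the chloroplast envelope, varied from 13.3 CPM in atm1-1 glucose replicate 2 to 74.7 CPM in atm1-1 mock replicate 2 and was called in no comparison.

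Of the 6 peroxisomal genes, edgeR called GOX1, CAT2 and HPR1 lower on sucrose in both genotypes. It called GOX2 and AGT1 in atm1-1 alone at the threshold, and GGT1 in neither. GOX1 (AT3G14420), a glycolate oxidase, held 1113, 1043 and 1081 CPM in Col-0 mock, 886, 819 and 818 on glucose and 807, 691 and 527 on sucrose. The mutant values were 906, 1143 and 899 CPM in mock, 716, 823 and 747 on glucose, and 606, 714 and 713 on sucrose. The sugar libraries were all at 886 CPM or less and the mock libraries all at 899 or more. GOX1 had the lowest q of any member on sucrose in Col-0 (−0.68 ± 0.15, q = 0.0197) and fell also in atm1-1 (−0.54 ± 0.15, q = 0.047, edgeR). GOX2 was called on sucrose in atm1-1 (−0.50 ± 0.15, q = 0.0656), and in Col-0 its share of the GOX1 and GOX2 reads was 32.9 to 35.5% in mock, 37.0 to 39.5% on glucose and 35.4 to 43.7% on sucrose. In atm1-1 the share was 33.8 to 38.3% in mock, 35.3 to 44.3% on glucose and 35 to 38% on sucrose, ranges that overlapped.

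CAT2 (AT4G35090), the catalase that removes the peroxide made by glycolate oxidase, was at 527, 468 and 502 CPM in Col-0 mock, 422, 390 and 428 on glucose and 356, 301 and 337 on sucrose. In atm1-1 it was at 403, 460 and 398 CPM, at 321, 369 and 296 on glucose and at 232, 276 and 298 on sucrose. Within each genotype the sugar libraries lay below mock, and in Col-0 the 3 treatments were fully separated. CAT2 changed by −0.59 ± 0.14 (q = 0.0288) on sucrose in Col-0 and by −0.64 ± 0.14 (q = 0.0071, edgeR) in atm1-1.

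HPR1 (AT1G68010), hydroxypyruvate reductase, completes the peroxisomal part. Its levels were 643, 541 and 576 CPM in Col-0 mock, 454, 495 and 464 on glucose, and 445, 376 and 348 on sucrose. The atm1-1 libraries gave 519, 603 and 596 CPM, then 465, 497 and 429 on glucose and 365, 402 and 417 on sucrose. Sucrose, glucose and mock formed separate ranges in each genotype, in that order from low to high. HPR1 changed by −0.59 ± 0.13 (q = 0.0249) and −0.54 ± 0.13 (q = 0.0243, edgeR) on sucrose in Col-0 and atm1-1. Of the peroxisomal aminotransferases, AGT1 fell on sucrose in atm1-1 (−0.56 ± 0.18, q = 0.0927) and GGT1 was called in the pooled comparison alone by edgeR (−0.36 ± 0.08, q = 0.0034). DESeq2 called GGT1 lower on sucrose in Col-0 (−0.36, q = 0.0495) and in atm1-1 (−0.34, q = 0.0485). The sucrose libraries of GGT1 lay wholly below mock in both genotypes.

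In the mitochondrion, glycine decarboxylase and serine hydroxymethyltransferase turn glycine into serine. GLDP1 (AT4G33010), the main gene for the decarboxylase P protein, held 902, 1029 and 959 CPM in Col-0 mock, 1055, 850 and 834 on glucose and 745, 746 and 585 on sucrose. Its atm1-1 libraries had 819, 1048 and 782 CPM, then 744, 1046 and 849 on glucose and 551, 740 and 750 on sucrose. Glucose overlapped mock in both genotypes, sucrose lay below it, and GLDP1 was called in no comparison (pooled −0.23 ± 0.10, q = 0.159). GLDP2 (AT2G26080), its paralogue, was at 182, 148 and 153 CPM in Col-0 mock, 156, 132 and 151 on glucose, and 136, 123 and 81.8 on sucrose. In the mutant it was at 139, 195 and 144 CPM, 125, 126 and 109 on glucose and 75.1, 110 and 109 on sucrose. It made up 10.7 to 16.8% of the reads of the pair, and unlike GLDP1 it was called on sucrose in atm1-1 (−0.70 ± 0.18, q = 0.0329, edgeR), although the difference between the paralogues was not tested.

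GLDT (AT1G11860) encodes the T protein of the same complex. It held 466, 441 and 454 CPM in Col-0 mock, 378, 406 and 408 on glucose, and 394, 334 and 282 on sucrose. The atm1-1 values were 419, 512 and 435 CPM, 369, 372 and 342 on glucose, and 220, 363 and 321 on sucrose. Every sugar library lay below the mock libraries of its genotype, and the change on sucrose in atm1-1 was −0.60 ± 0.16 (q = 0.0371, edgeR). SHM1 (AT4G37930), the serine hydroxymethyltransferase, was at 579, 640 and 581 CPM in Col-0 mock, 526, 465 and 543 on glucose, and 520, 457 and 412 on sucrose. In atm1-1 it was at 548, 687 and 546 CPM, 463, 374 and 442 on glucose and 402, 449 and 408 on sucrose. SHM1 fell on both sugars in atm1-1, with log2 fold changes of −0.48 ± 0.14 (q = 0.0859) and −0.50 ± 0.14 (q = 0.0481, edgeR). GLDH1, an H protein gene, had 102 to 167 CPM over all libraries and was called nowhere.

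GLYK (AT1G80380), D-glycerate 3-kinase, closes the pathway back in the chloroplast. It stood at 173, 144 and 167 CPM in Col-0 mock, 106, 139 and 145 on glucose, and 119, 122 and 93.0 on sucrose. In atm1-1 the libraries had 183, 169 and 180 CPM in mock, 143, 96.7 and 112 on glucose, and 72.7, 106 and 112 on sucrose. On sucrose both genotypes were clear of mock, and in atm1-1 glucose was too. GLYK had the lowest fold change of the photorespiration set, −0.87 ± 0.18 on sucrose in atm1-1 (q = 0.00458, edgeR), where its mean was 54.6% of mock. It fell on glucose in atm1-1 as well (−0.60 ± 0.18, q = 0.0888, edgeR). DESeq2 also called GLYK lower on sucrose in Col-0 (−0.54, q = 0.088).

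**Figure D4:**
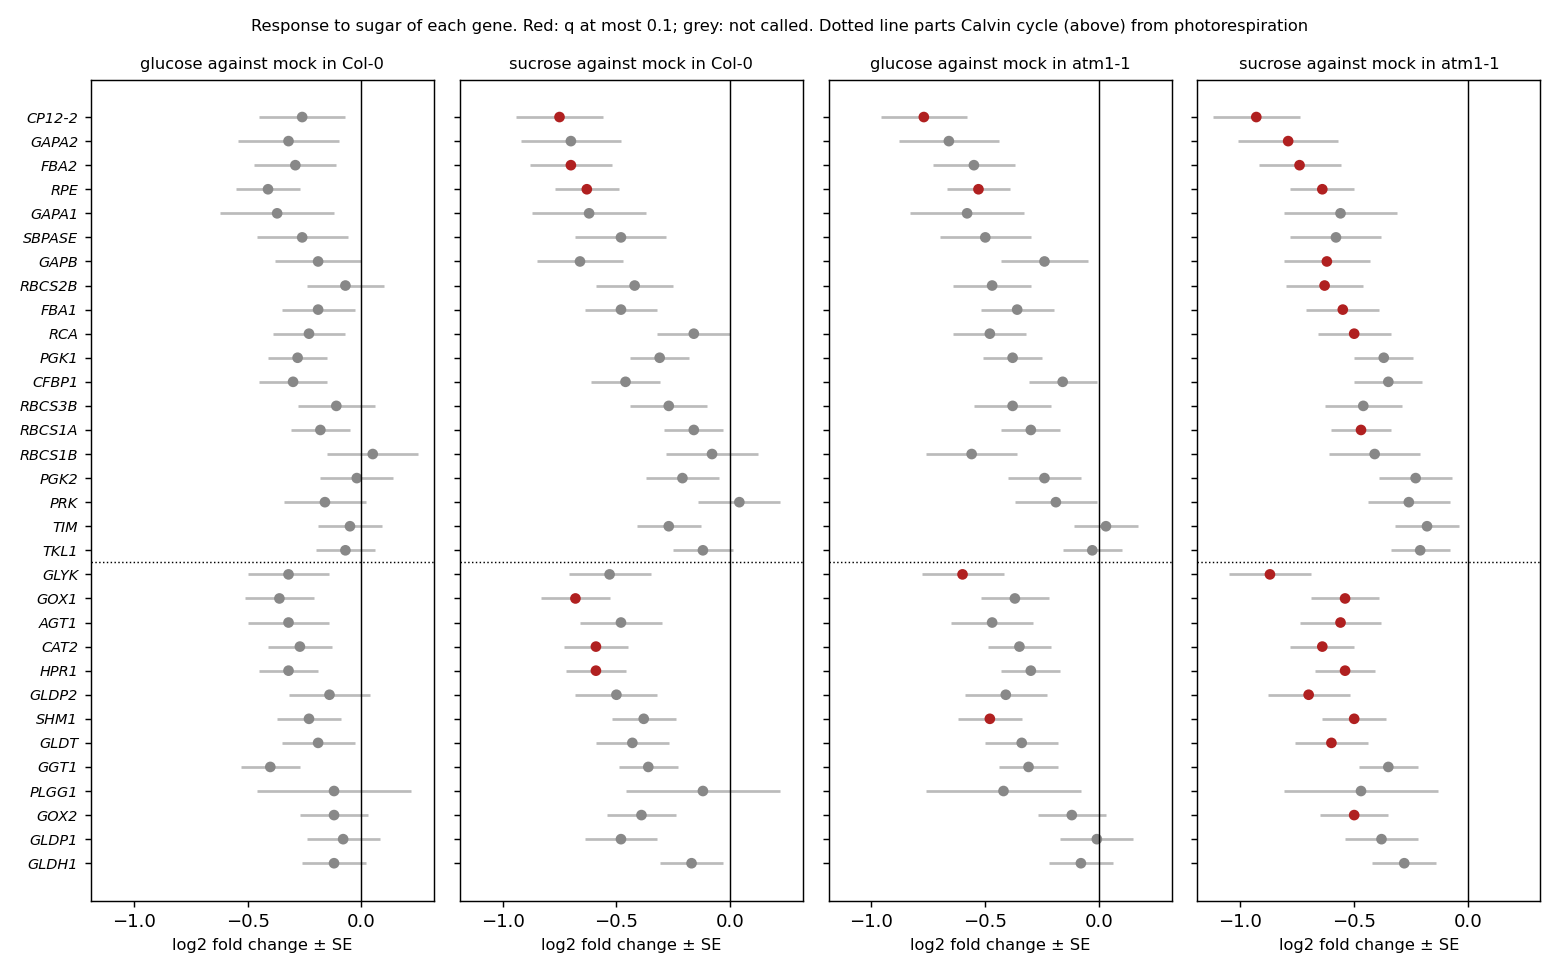
Log2 fold change of each tested gene against mock, with its SE, for glucose and sucrose in Col-0 and in atm1-1. Red points have a q-value of at most 0.1. Calvin cycle genes are above the dotted line and photorespiration genes below. Nearly all points are left of 0, with 0, 6, 4 and 18 called from the left panel to the right.

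Sequences upstream of the annotated gene start are shown for 4 genes. The 250 bases before each start were read from the RefSeq genome TAIR10.1 and searched on both strands for the G-box CACGTG, the I-box GATAAG, the motif TTATCC, which overlaps an I-box read on the other strand where a C follows, and the evening element AAAATATCT. In the sequences below, 5′ to 3′ along the gene's strand, capitals mark the G-box and the I-box on either strand. RBCS2B and CFBP1 are shown because they were the only members to hold both in this window. CP12-2 is shown because it had the lowest fold change of the Calvin cycle set and holds an I-box. RPE is shown because it had the lowest pooled q and holds neither there. The window is set by the annotated gene start, and boxes outside it were not counted. RBCS1A and RBCS1B, in which no box was found, may therefore hold one beyond its ends.
RBCS2B (chr5:15382072-15382321, minus strand): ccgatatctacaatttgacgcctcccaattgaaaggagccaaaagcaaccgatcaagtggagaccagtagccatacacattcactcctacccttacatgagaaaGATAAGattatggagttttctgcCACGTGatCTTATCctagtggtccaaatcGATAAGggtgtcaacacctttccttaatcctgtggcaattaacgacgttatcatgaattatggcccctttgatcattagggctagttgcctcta
CFBP1 (chr3:20016587-20016836, plus strand): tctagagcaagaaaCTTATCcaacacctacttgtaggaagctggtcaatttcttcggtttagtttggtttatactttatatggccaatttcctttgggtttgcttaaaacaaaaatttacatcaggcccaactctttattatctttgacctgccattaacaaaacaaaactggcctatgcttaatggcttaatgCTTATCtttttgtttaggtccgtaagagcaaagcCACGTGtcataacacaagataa
CP12-2 (chr3:23090694-23090943, plus strand): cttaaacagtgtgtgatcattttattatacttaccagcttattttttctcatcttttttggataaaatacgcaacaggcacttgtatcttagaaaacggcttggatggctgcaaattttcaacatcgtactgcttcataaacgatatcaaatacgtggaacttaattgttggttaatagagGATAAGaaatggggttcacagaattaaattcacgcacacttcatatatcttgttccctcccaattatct
RPE (chr5:24686218-24686467, minus strand): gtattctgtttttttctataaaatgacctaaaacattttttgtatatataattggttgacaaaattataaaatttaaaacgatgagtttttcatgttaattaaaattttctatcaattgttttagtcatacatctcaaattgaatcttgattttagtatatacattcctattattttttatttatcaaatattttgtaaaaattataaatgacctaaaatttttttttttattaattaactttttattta
The G-box was present in 5 of 33 promoters of these genes (15.2%) and in 6.49% of 27443 promoters of protein-coding genes. For the I-box the numbers were 5 of 33 (15.2%) and 12.3%, and for TTATCC 7 of 33 (21.2%) and 12.5%. The evening element was in 0 of 33 and in 2.36% of all. Both G-box and I-box were held by 2 of 33, against 0.922%. The 5 genes with a G-box (RBCS2B, CFBP1, PRK, GLDP1 and GGT1) included both called and uncalled members. CP12-2, GLYK, CAT2 and RPE were called on sucrose in atm1-1 whichever library was left out. Of these, CP12-2 holds an I-box in this window, and GLYK, CAT2 and RPE hold neither box. A link between the boxes and the response was not tested.

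No member differed between sucrose and glucose at the threshold in either genotype by edgeR, nor did any of the tested genes (0% called), of which 1282 in Col-0 and 936 in atm1-1 had an unadjusted p under 0.05 and DESeq2 called 13 and 4. In Col-0, 28 of 32 estimates were below 0, with medians of −0.22 for the Calvin cycle and −0.24 for photorespiration, and 7 members had an unadjusted p under 0.05. In atm1-1 the medians were −0.13 and −0.23, again with 28 estimates below 0 and 3 members under that unadjusted p. DESeq2 likewise called 0 members in both. The lowest estimate in Col-0 was that of CP12-2 (−0.49 ± 0.19, q = 0.744). The 3 sucrose libraries lay below the 3 glucose libraries for 9 members in Col-0 (6.64% of all tested genes) and for 4 in atm1-1 (3.8%). Group means followed the order mock, glucose, sucrose from high to low in 26 of 32 genes in Col-0 and 27 in atm1-1, where 21.7% and 19.9% of all tested genes did. Photorespiration genes did so in both genotypes for 11 of 13, Calvin cycle genes for 11 of 19, and all tested genes for 8.65%. Nearly all members were below mock on both sugars, unlike all tested genes, so these shares do not set sucrose apart from glucose.

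Between the genotypes, no member was called within any 1 treatment. In mock, where 0.122% of all tested genes were called lower in atm1-1, 0 members were called and 0 had an unadjusted p under 0.05. The medians of the Calvin cycle and photorespiration genes were −0.07 and −0.03. On glucose the medians were −0.26 and −0.14 with 0 members called (0.0305% of all genes) and 5 under that unadjusted p, and on sucrose −0.17 and −0.16 with 0 called (0.0254%) and 4 under it. Without atm1-1 glucose replicate 2 the Calvin cycle median on glucose was −0.14, and without atm1-1 sucrose replicate 1 both medians on sucrose were −0.05. DESeq2 called 0 members in each treatment. The atm1-1 libraries lay wholly below those of Col-0 for 2 members in mock (6.53% of all tested genes), 7 on glucose (4.89%) and 6 on sucrose (6.25%). Averaged over the 3 treatments, 2 members were lower in atm1-1 by edgeR, against 0.625% of all genes, and 3 by DESeq2. The log2 difference of RBCS1B was −0.44 ± 0.12 (q = 0.099) and that of RCA −0.39 ± 0.09 (q = 0.0537, edgeR). RCA is described beyond the naming rule because it was one of these 2. Without atm1-1 glucose replicate 2, which held the lowest RBCS1B and RCA values, the estimates were −0.35 (q = 0.0647) and −0.36 (q = 0.0576). RBCS1B kept its call without atm1-1 mock replicate 2, atm1-1 glucose replicate 1 or 2 or atm1-1 sucrose replicate 2, and lost it without any 1 of the 14 other libraries, all of Col-0 included (q = 0.12 to 0.222, edgeR). RCA lost its call without Col-0 mock replicate 1 or 3, Col-0 glucose replicate 1, atm1-1 mock replicate 1 or 3, atm1-1 glucose replicate 3, or atm1-1 sucrose replicate 1 or 3 (q = 0.106 to 0.152, edgeR). CAT2, at −0.29 ± 0.08, missed the threshold by edgeR (q = 0.102) and was the additional call of DESeq2 (q = 0.0168).

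The response to sugar did not differ between genotypes at the threshold. For glucose the difference of the responses, atm1-1 minus Col-0, had medians of −0.21 for the Calvin cycle and −0.08 for photorespiration, and for sucrose −0.09 and −0.11. Without atm1-1 mock replicate 2 the Calvin cycle median for glucose was −0.07. The interaction was called for 0 of 32 members and for 0% of all genes by edgeR with either sugar. DESeq2 called 0 members and 8 and 5 of all genes, and 750 and 558 of all genes had an unadjusted p under 0.05 by edgeR. An unadjusted p under 0.05 was reached by 1 member for glucose, none for sucrose. The estimates ran from −0.61 ± 0.29 (RBCS1B) to 0.15 ± 0.21 (CFBP1) for glucose and from −0.35 to 0.14 for sucrose, so the larger number of calls on sucrose in atm1-1 than in Col-0 is not shown to be a difference between the genotypes.

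Among other genes of these pathways and their gene families some fell, 2 rose and most were not called in any comparison with mock. Of 12 further Calvin cycle genes (other isoforms, isomerases and Rubisco assembly factors), 1 fell on sucrose in atm1-1, the assembly chaperone gene RBCX2 (−0.50 ± 0.14, q = 0.0502, edgeR). In the pooled comparison 4 fell (RPI3, BSD2, RBCX2 and CFBP2) and the other 8 were not called. A further 18 genes belong to photorespiration or to its gene families, and not all need serve the pathway. Of these, GLU1, the ferredoxin-dependent glutamate synthase that reassimilates photorespiratory ammonia, fell on sucrose in Col-0 (−0.59 ± 0.15, q = 0.0553) and in atm1-1 (−0.54 ± 0.15, q = 0.0511). GLDH3 (−0.53 ± 0.15) and BOU (−0.67 ± 0.18), an H protein gene and a mitochondrial carrier gene, also fell on sucrose in atm1-1, where GOX3 rose (1.02 ± 0.31, q = 0.0724). Pooled over sugars and genotypes, GLU1, GLDH3, BOU and GS2, the plastid glutamine synthetase, fell and LPD2, an L protein gene, rose (0.32 ± 0.09, q = 0.0337). The medians of these lists on sucrose were −0.20 and −0.20 in Col-0 and −0.18 and −0.29 in atm1-1.

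Genes of the light reactions moved alongside. Of 33 of them, 6 fell on sucrose in Col-0, 1 on glucose in atm1-1, 9 on sucrose in atm1-1, 0 on glucose in Col-0 by edgeR (5 with an unadjusted p under 0.05) and 25 in the pooled comparison, and their medians on sucrose were −0.39 in Col-0 and −0.42 in atm1-1. Their summed level ranged from 229238 to 244189 CPM in Col-0 mock, 196163 to 211966 on glucose and 168472 to 196850 on sucrose, and took 17.7 to 23.5% of all counts over the libraries. In atm1-1 the ranges were 215014 to 252642, 197701 to 246808 and 157202 to 205360 CPM. In whole seedlings, a smaller share of green cells and less of each transcript per green cell cannot be told apart. Of 10 tested shoot genes that encode no photosynthetic enzyme or complex (wax, stomatal and meristem genes and the chloroplast regulators GLK1 and GLK2), 0 fell in any comparison with mock by edgeR (1 to 4 had an unadjusted p under 0.05 in either direction) and 1, the wax gene CER1, rose on both sugars in atm1-1. Their sum spanned 466 to 598 CPM over the mock libraries and 447 to 603 over the sugar libraries. Among 11 tested root genes, EXPA18 rose on sucrose in Col-0 and on both sugars in atm1-1, NRT2.1 fell on sucrose in atm1-1, and the sum was 221 to 307 CPM in mock and 151 to 361 on sugar. The markers WSD1, PLT1, PLT2 and WOX5 had 3 to 60 counts over all libraries and were not tested. None of 9 clock genes was called by edgeR in any comparison with mock, with 0 to 2 under an unadjusted p of 0.05. Those under it were CCA1 (−0.79 ± 0.32) and PRR5 (−0.59 ± 0.28) on sucrose in Col-0, PRR7 (−0.43 ± 0.14, q = 0.105) on sucrose in atm1-1, and PRR7 and PRR5 pooled. The clock sums were 267 to 315 CPM in mock and 243 to 289 on sugar over both genotypes. In Col-0 the mock libraries (267 to 288 CPM) overlapped those on glucose (243 to 286) and sucrose (259 to 271). In atm1-1 all mock libraries (293 to 315 CPM) lay above those on glucose (272 to 281) and sucrose (267 to 289). A sum can hide opposite changes of single genes. The part of organ proportions or of the time of harvest in the lower levels of the 33 genes was not tested.

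**Figure D5:**
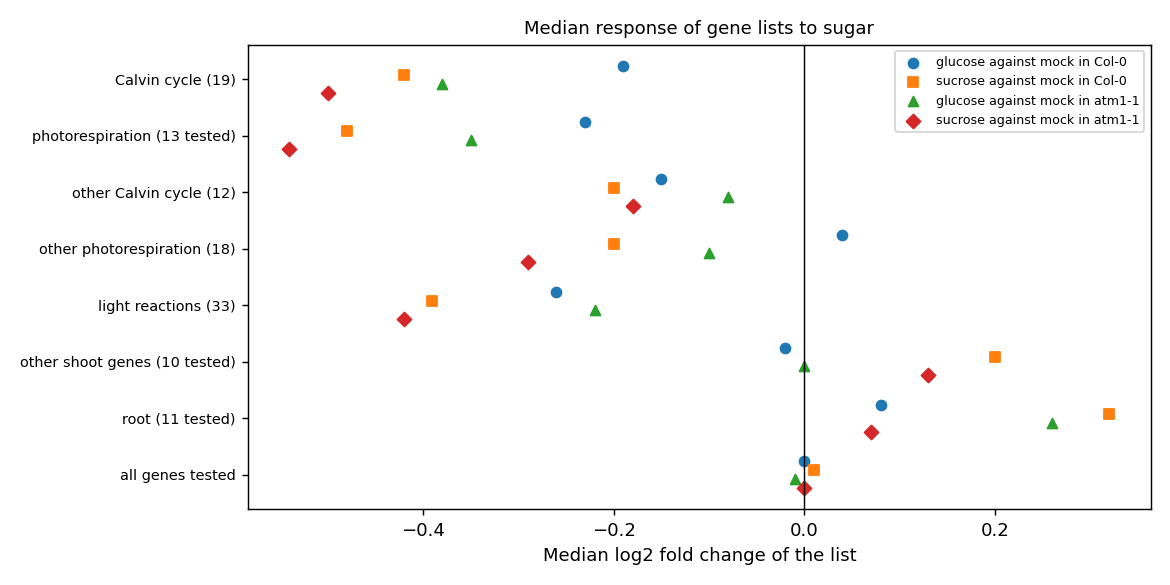
Median log2 fold change against mock of each gene list (rows, with the number of tested genes) in the 4 sugar comparisons, shown by marker shape. Both main lists lie between −0.19 and −0.54 and the light reaction genes between −0.22 and −0.42. The medians of all tested genes lie within 0.01 of 0, where TMM scaling brings them by design.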

How the data were processed

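Per the labels and the study's methods, RNA from whole seedlings was made into Lexogen QuantSeq 3′ libraries and read as 50-base single ends, and the authors deposited raw read counts per gene for all 18 libraries. The submitters' processing notes name STAR, HTSeq and edgeR, without versions, and the TAIR10 genome. The annotation release and strand setting are not given in the sources used here. A second deposited table of scaled values was not used, and no other columns were left over.

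Counts were analysed in R 4.3.3 with edgeR 4.0.16. After filterByExpr over the 6 groups, 19679 of 32832 genes remained. Counts were normalized by TMM and fitted by glmQLFit with 1 coefficient per group, without a replicate block, and 13 comparisons were tested with glmQLFTest. The study named another count test, which was not installed, so edgeR replaced it. SE was taken from the F statistic of each test, as the log2 fold change over its square root. The scripts were tested on simulated data. Alternatives were RLE factors, library size alone, no filter, at least 10 counts in every library, DESeq2 1.42.0, only the groups compared, a q-value of 0.05, a replicate block, and each library left out. Replicates of a group differed by more than counting noise.

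Members and lists were chosen with earlier results of these data known. Values by library are given for the 12 called members with the lowest q-value in sugar comparisons within a genotype or comparisons of genotypes, the 2 most abundant members of each set, the RBCS genes and PGLP1, 17 in all. Library totals of 9450790 to 20256309 set the counting precision, which is finer than the spread between replicates. All 33 loci matched the RefSeq annotation of TAIR10.1, whose coordinates apply only to the promoters, since the count table holds none.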

Additional observations from a re-analysis of the deposited data

How the results depend on the processing

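Medians of both gene sets stayed below 0 in all comparisons with mock under all alternatives run (−0.61 to −0.14). Of 406 values of medians, 3 turned positive: those of the Calvin cycle for sucrose against glucose in atm1-1 without glucose replicate 1 (0.01), and of photorespiration for the glucose interaction without atm1-1 mock replicate 2 (0.04) and the sucrose interaction without atm1-1 sucrose replicate 1 (0.03). Medians between genotypes moved by over 1.5 times in places: for the Calvin cycle they ran from −0.36 to −0.14 on glucose, −0.26 to −0.05 on sucrose, −0.29 to −0.07 for the glucose interaction and −0.17 to −0.01 for the sucrose interaction, and for photorespiration from −0.20 to −0.13, −0.25 to −0.05, −0.13 to 0.04 and −0.14 to 0.03. Scaling by library size alone shifted the median of all genes by 0.15 and 0.14 on sucrose in Col-0 and atm1-1. Relative to that shift, 31 and 32 of 32 members were lower. Calls were less steady than directions. No called member turned around. Of the calls, 18 of 24 pooled and 4 of 18 on sucrose in atm1-1 (CAT2, CP12-2, GLYK and RPE) held under all alternatives, and 0 of 6 on sucrose in Col-0, 0 of 4 on glucose in atm1-1 and 0 of 2 between genotypes did.

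The number of members called was 11 without a filter and 12 by DESeq2 for sucrose in Col-0, in place of 6, and 1 by DESeq2 for glucose in Col-0, in place of 0. For glucose in atm1-1, in place of 4, it was 1 at a q-value of 0.05, 2 with library size scaling, 11 without a filter and 0 with only the groups compared. It was 11 with library size scaling for sucrose in atm1-1, in place of 18, and 1 without a filter for atm1-1 against Col-0 on glucose, in place of 0. Between genotypes over the 3 treatments it was 0 at a q-value of 0.05, in place of 2. Leaving out 1 library gave 0 to 10 members for sucrose in Col-0, 0 to 15 and 4 to 16 for glucose and sucrose in atm1-1, 20 to 26 pooled, 0 to 1 for genotype on glucose and 0 to 5 for genotype over the treatments. The other comparisons stayed at 0.

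Over all genes, counts of calls under the alternatives other than left-out libraries ran from 81 to 245 (109 in the text's fit) for glucose in Col-0, 212 to 921 (421) for sucrose in Col-0, 171 to 1073 (575) for glucose in atm1-1, 598 to 1806 (1030) for sucrose in atm1-1 and 1579 to 2760 (2307) pooled. For genotype they ran from 16 to 107 (31) in mock, 4 to 100 (10) on glucose, 1 to 97 (9) on sucrose and 81 to 545 (174) over the treatments. For sucrose against glucose they reached 125 in Col-0 and 48 in atm1-1, and for the glucose and sucrose interactions 14 and 21, from 0.

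Replicate numbers did not pair the libraries. Deviations of same-numbered libraries of different groups correlated at −0.148 to 0.275, with 3 of 45 pairs over 0.1. With the replicate block, 2 members were called for glucose in atm1-1 and 1 between genotypes over the treatments, and counts of called members in the other comparisons stayed within 1.5 times those without it.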
